A study of Drosophila melanogaster with 2 samples.

Results

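Of the 2062 peaks on the chromosome arms X, 2L, 2R, 3L, 3R and 4 in the main peak list of this study, 253 had their summit outside every annotated gene and more than 500 bp from every annotated transcription start site. They are called intergenic peaks here. The data came from chromatin immunoprecipitation and sequencing (ChIP-seq) of whole Drosophila melanogaster embryos collected at 8 to 24 h, from flies with a transgene for the protein CG43689 joined to the green fluorescent protein eGFP. Chromatin was sonicated to 200 to 800 bp and the fusion protein was precipitated through its GFP part; another label field names CG43689 as the antibody. The group held 2 biological replicates and there was no second condition, so each comparison below is between sets of peaks. The fusion protein came from a transgene, whole embryos mix all cell types of those hours, and no library from flies without the tag was analysed here.

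Genes in Drosophila lie close together. Enhancers lie both in introns and in the DNA between genes, and so do insulators, which are elements bound by proteins such as CTCF and Su(Hw) that keep neighbouring regulatory domains apart. A peak far from every start site may therefore mark a regulatory element of either flanking gene, of a more distant gene, or of none. CTCF and Su(Hw) are zinc finger proteins with long, well-described sites, and M1BP is a zinc finger protein best known from promoters of broadly expressed genes. Mef2 is a muscle transcription factor with an AT-rich site.

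The DNA at the summits was mostly AT-rich, and 3 of the strongest intergenic peaks show it. Each window is the 101 bases centred on the summit, on the plus strand of dm6, read from the RefSeq assembly; capitals mark matches, on either strand, to the motifs of CTCF, M1BP, Mef2 and Su(Hw), to a TATA element or to AAATAT. The first AT-rich window (chr2L:1638771-1638871), labelled chinmo gap, is from the gap between the noncoding RNA genes CR44603 and CR45695. Its summit lay 12437 bp before the chinmo start. The others are from the gap before CG7560 (chr3L:11418407-11418507) and the gap before foxo (chr3R:14053552-14053652). The 3 windows had 75, 80 and 75 A or T bases.
chinmo gap: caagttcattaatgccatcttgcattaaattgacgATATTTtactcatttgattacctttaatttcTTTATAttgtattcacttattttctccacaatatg
CG7560 gap: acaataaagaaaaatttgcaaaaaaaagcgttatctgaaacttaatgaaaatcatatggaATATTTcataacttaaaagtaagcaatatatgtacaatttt
foxo gap: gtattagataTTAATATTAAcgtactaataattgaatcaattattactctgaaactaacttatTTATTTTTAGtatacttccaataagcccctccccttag

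Other strong intergenic peaks had less A and T and a recognisable protein site or none. The window beside jp (chr2L:9567452-9567552) and the weaker one between Sid and snu (chr3R:28672354-28672454) each hold a CTCF match (AGNTGGCGC), the window between slp1 and slp2 (chr2L:3832469-3832569) holds 2 matches to the M1BP motif (GGTCACACT), and the window before sp3 (chr3R:21520303-21520403) holds no match to a marked motif. These 4 windows had 57, 57, 57 and 58 A or T bases.
jp: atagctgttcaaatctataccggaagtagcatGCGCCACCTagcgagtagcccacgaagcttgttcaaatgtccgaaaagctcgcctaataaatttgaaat
Sid and snu: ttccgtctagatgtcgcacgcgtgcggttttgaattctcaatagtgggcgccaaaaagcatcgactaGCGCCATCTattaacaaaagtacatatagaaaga
slp1 and slp2: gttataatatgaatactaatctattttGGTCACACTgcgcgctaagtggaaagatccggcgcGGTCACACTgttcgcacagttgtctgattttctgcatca
sp3: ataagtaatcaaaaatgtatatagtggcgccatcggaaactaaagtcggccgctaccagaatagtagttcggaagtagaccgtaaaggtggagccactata

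The 253 intergenic peaks were set against 2 other sets. The first was the other 1809 main peaks on the arms, of which 952 had a summit within 500 bp of a start site (promoter peaks) and 857 lay inside genes farther away (genic peaks). The second was 38032 ranked intergenic peaks: candidates of the deposited ranked list that met the same rule on position and were not in the main list. Of all 148428 ranked peaks on the arms, 1.39% were in the main list, and of the 38285 intergenic candidates 0.661% were. Signal is the authors' value per peak, on a scale of each list's own, and depth per library is unknown. The test of shares was the two-sided exact test of Fisher, which treats peaks as independent although neighbouring peaks share a locus. The 11 single comparisons have p-values adjusted over all 11 by the Benjamini-Hochberg method. Intervals are 95% Wilson intervals and cover counting error only.

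The rule has a sharp limit at 500 bp, and 459 further summits in no gene fell within it. The 3 intergenic peaks nearest the limit lay 510 bp from the start of CG8204, 518 bp from the long noncoding RNA gene CR44730 and 519 bp from CG5973. Their pooled signals were 58.4, 58.7 and 147. The 3 gene-free summits nearest to it on the other side lay 482 bp from CG17896, 480 bp from CG6602 and 477 bp from CG10479, with signals of 242, 52.6 and 140.

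Intergenic peaks spanned a wide range of signal. Their pooled signal had a median of 82.7 and ran between 5.34 and 865, and the other main peaks had a median of 89.4 and ran between 2.00 and 1040. Of the intergenic peaks, 43.1% (37.1 to 49.2%) reached the median signal of the main list, against 50.97% of the other main peaks (odds ratio 0.728, exact p = 0.0223, adjusted p = 0.0351), where the share over all main peaks was 50%. Promoter peaks had a median signal of 98.0 and genic peaks one of 81.5. Compared with promoter peaks alone, 39.5% of intergenic and 52.8% of promoter peaks reached the median of both sets together (odds ratio 0.583, exact p = 0.000175). Compared with genic peaks alone, the shares were 50.6% of intergenic and 49.8% of genic peaks, so the direction turned and the call was lost (odds ratio 1.03, exact p = 0.886). The call against all other main peaks was also lost in the list of each replicate (exact p = 0.178 in replicate 1's and 0.255 in replicate 2's), with transposon and pseudogene models kept as genes (exact p = 0.0574), in the stronger peaks, meaning main peaks that reached the median (exact p = 0.130), and in those in both replicate lists (exact p = 0.121).

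Each replicate also had its own thresholded list, and 90 intergenic peaks (35.6%, 29.9 to 41.6%) shared at least 1 bp with a peak in both lists. Among all main peaks that share was 42.5%, and among the other main peaks it was 43.5% (odds ratio 0.717, exact p = 0.0175, adjusted p = 0.0321). It was 50.1% among promoter peaks (odds ratio 0.550, exact p = 3.83e-05) and 36.2% among genic peaks, against which the call was lost (odds ratio 0.974, exact p = 0.882). A further 74 intergenic peaks were in 1 replicate's list, 36 of them in replicate 1's and 38 in replicate 2's, and 89 were in neither. Support followed signal: the pooled signal had a median of 132 in peaks found in both lists, 81.5 in those found in 1 and 63.3 in those found in neither. Among main peaks at or above the median signal the call was lost, with 77.1% of intergenic and 80.6% of other peaks in both lists (odds ratio 0.809, exact p = 0.375). The conservative list, which the authors also made from both replicates, overlapped 207 intergenic peaks (81.8%). The same share is not given here for the other main peaks, so it shows no difference between the sets.

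The ranked list of each replicate gave a value at nearly every intergenic peak. Replicate 1 had an overlapping ranked peak at all 253, with signals between 10.5 and 416 and a median of 40.5, and replicate 2 had one at 252, with signals between 2.68 and 449 and a median of 42.9. Across the 252 peaks with both values, Pearson's r was 0.92 and Spearman's rho was 0.58, as a description of peaks that share the same 2 libraries. The replicates' own summits lay a median of 22 bp apart, and at 197 of the 252 peaks (78.2%) they lay within 50 bp. In peaks supported by both lists the median distance was 15 bp, and in peaks supported by neither it was 30 bp.

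**Figure D1:**
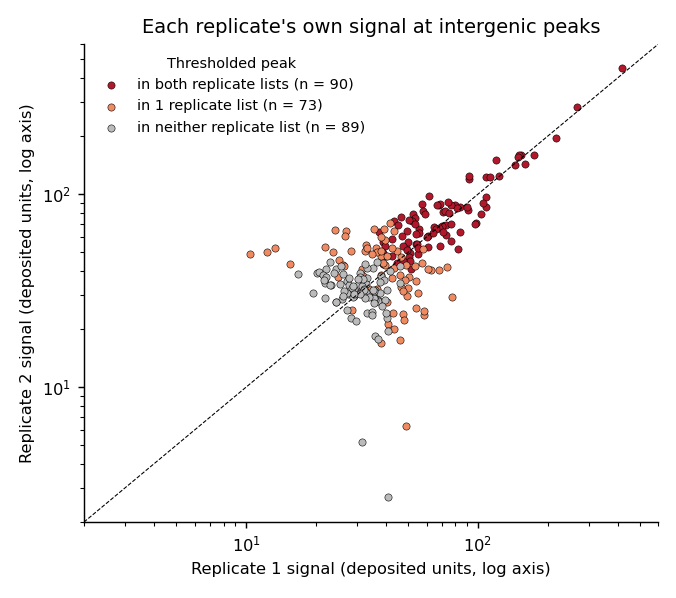
Signal of each replicate's own ranked peak at 252 intergenic peaks, replicate 1 on the x axis and replicate 2 on the y axis, both log axes in the units deposited for each list; colour gives the number of replicate lists with a thresholded peak there and the dashed line is equality. The peaks in both lists reach 416 in replicate 1 and 449 in replicate 2, and the weaker ones scatter to either side of the line.

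The strongest intergenic peak was at chr2R:13035223-13035449, in a gap of 36783 bp between Su(z)2 and CG13323. Its pooled signal of 865 ranked 5th in the whole main list. The signal was 416 in replicate 1 and 449 in replicate 2, which was the 6th highest value in each ranked list, and the replicates' summits were 1 bp apart. The summit was 11917 bp from the start of CG13323 and 38216 bp from the start of Su(z)2, a Polycomb group gene.

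The second-ranked intergenic peak, at chr3R:16222397-16222599, had a pooled signal of 557, with 268 in replicate 1 and 284 in replicate 2. It lay 902 bp from the long noncoding RNA gene CR45643 and 3158 bp before the start of tara, which encodes a nuclear regulator named taranis. The third, at chr3R:21520274-21520442, had a pooled signal of 405, with 217 in replicate 1 and 195 in replicate 2, and lay 575 bp from the start of sp3 with the homeobox gene C15 on its other side. Few intergenic peaks stood this high: 3 were among the 50 strongest main peaks, 8 among the 100 strongest and 45 among the 500 strongest. The set made up 253 of the 2062 main peaks, and these counts were not tested.

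A run of strong intergenic peaks lay before chinmo, which encodes a BTB zinc finger protein known for setting temporal identity in neurons. Counting from its first annotated start, intergenic peaks lay at 18.4, 12.4, 7.80, 2.47, 1.94 and 1.53 kb upstream, with pooled signals of 327, 310, 210, 161, 144 and 124. All 6 were supported by both replicate lists. The peak at 18.4 kb had 174 in replicate 1 and 160 in replicate 2, the one at 12.4 kb had 150 and 159, and the one at 7.80 kb had 91.5 and 124. A seventh, at 35.3 kb upstream and past the long noncoding RNA gene CR44603, was weaker at 65.5 and was in neither replicate list. No main peak lay in the 60 kb beyond the chinmo start.

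**Figure D2:**
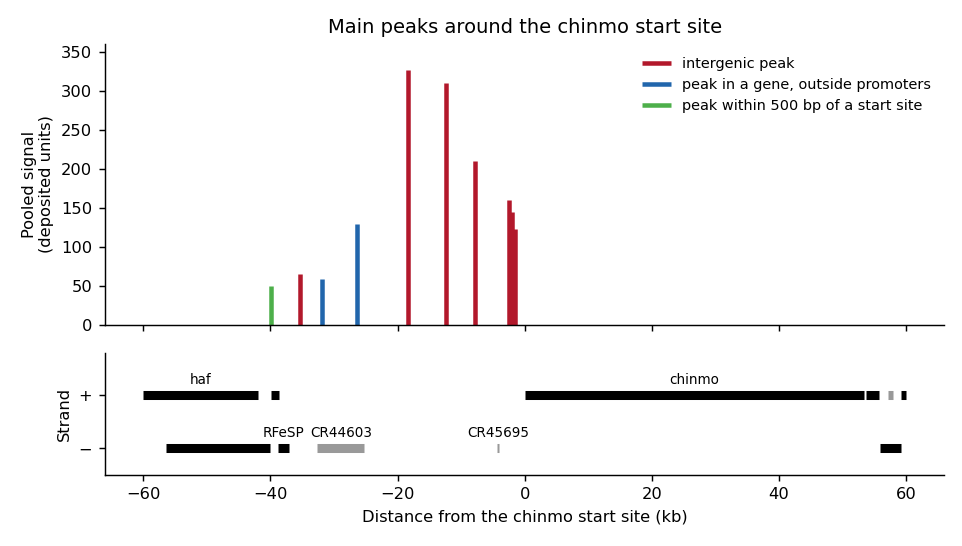
Main peaks within 60 kb of the first annotated start of chinmo, by distance in kb (x axis, negative values upstream) and pooled signal in deposited units (y axis), with gene spans by strand below; black bars are protein-coding genes and grey bars noncoding RNA genes. The 6 intergenic peaks between CR44603 and chinmo have signals between 124 and 327, and no peak stands to the right of the start.

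The 25 strongest intergenic peaks had pooled signals of at least 167, and all 25 were supported by both replicate lists. Beside jp, the junctophilin gene, a peak at chr2L:9567435-9567576 had a pooled signal of 322 (154 in replicate 1 and 159 in replicate 2), 752 bp from the jp start. One between blw, which encodes a subunit of the mitochondrial ATP synthase, and the cyclin gene CycB had 305.5 (159 and 144). The peak 3343 bp before foxo, which encodes a forkhead factor of insulin signalling, had 290 (145 and 141), and one 6701 bp before CG7560 had 302 (149 and 155). On the X, the strongest was at chrX:5696432-5696597 between CG3149 and the noncoding RNA gene CR42794, with 272 (120 and 151). In each of these the 2 replicates' values, each on its own list's scale, differed by less than 1.5 times.

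Few of this group stood beside genes on a list of embryonic patterning transcription factors. Genes of that list bordered 5.14% of all intergenic peaks and 5.63% of the ranked ones. The peak between slp1 and slp2, a pair of forkhead segmentation genes, had a pooled signal of 215 (91.9 in replicate 1 and 120 in replicate 2) and lay 4321 bp from the slp2 start. The one between the T-box genes Doc2 and Doc1 had 174 (90.4 and 83.0) at 6647 bp from the Doc2 start. Further ones among the 25 lay 1900 bp from Atf3, a bZIP factor, at 214; 1598 bp from the cuticle protein gene Cpr76Ba, at 191; 601 bp from cpo, an RNA-binding protein gene of the nervous system, at 173; and 668 bp from RasGAP1, which encodes a Ras GTPase-activating protein, at 232. The others stood beside COX7AL2 and CG31668 (246), CR44537 and CR43883 (229), CG14762 and mir-4981 (194), Sol1 and Cyp9f2 (187), NijA and CG43245 (169), a gene for tRNA-Ile and CG13898 (168), CG12643 and alpha-Man-Ia (167), and CG7320 and CR45935 (167).

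At the other end of the set, 3 intergenic peaks had a pooled signal under 20, and the next lowest had 50.4. They had 15.8 beside Poxm, 9.81 between CG17570 and CG12617 and 5.34 between dls and CG13073. The last of these overlapped the intergenic peak of 50.4, so 1 ranked peak of each replicate, with 24.5 in replicate 1 and 27.7 in replicate 2, lay over both. In all, 2 pairs of neighbouring intergenic peaks overlapped.

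The distance to the nearest start site had a median of 2742 bp and ran between 510 and 59547 bp. The median was 4990.5 bp in the ranked intergenic peaks, and 28.5% of the intergenic peaks (23.3 to 34.3%) were at or beyond it, against 50% of the ranked ones (odds ratio 0.398, exact p = 4.73e-12, adjusted p = 2.6e-11). The share of candidates that reached the main list fell with distance in every step: it was 1.57% (1.19 to 2.08%) at 500 to 1000 bp, where 48 intergenic peaks lay, 1.13% at 1000 to 2000 bp, 0.670% at 2000 to 5000 bp, 0.535% at 5000 to 10000 bp, 0.334% at 10000 to 20000 bp and 0.171% (0.0899 to 0.325%) beyond that, where 9 lay. No such difference was detected within gaps. In the 173 gaps between genes that held both kinds, the median distance of the intergenic peaks was below that of the ranked peaks of the same gap in 92 gaps and above it in 81 (exact sign test p = 0.447). With only the strongest peak of each gap kept in both sets, 59.7% of the intergenic and 50% of the ranked peaks were at or beyond the median of the ranked ones, so the direction turned (odds ratio 1.48, exact p = 0.00831).

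**Figure D3:**
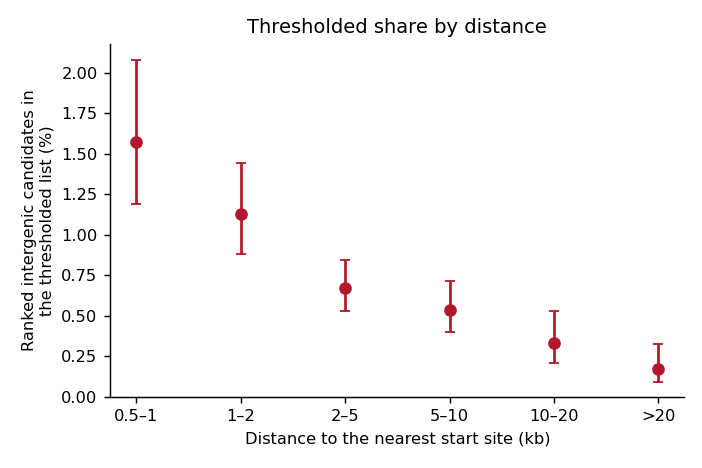
Share of intergenic candidates of the ranked list that were in the main list (y axis, %) by distance to the nearest start site (x axis, kb), with 95% Wilson intervals. The share is 1.57% in the nearest class and 0.171% in the farthest.

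The 5 intergenic peaks farthest from any start site lay 59547 bp from CG41099 on 3R, 46160 bp from ATbp on X, 36638 and 32944 bp from CG43245 on 3L, and 33836 bp from vvl, a POU-domain factor gene on 3L. Their pooled signals were 65.3, 86.5, 78.0, 95.4 and 126, and the last of these was the only one in both replicate lists. Signal differed little with distance in the set as a whole: the 127 nearer peaks had a median of 80.0 and the 126 farther ones 85.0, and 34.6% and 36.5% of them were supported by both lists. The nearest start site faced away from the summit, so that the summit was upstream of it, at 165 intergenic peaks, and at 88 it was on the far side of the gene from the summit. This split was not taken for the ranked intergenic peaks, so it is a description and not a trait particular to the set.

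With each peak counted once, the gap around it had a median length of 10428 bp for intergenic and 17339 bp for ranked peaks. With each gap counted once the order turned: the median was 8373.5 bp over the 196 gaps with an intergenic peak and 4543 bp over the 3637 gaps with a ranked one, and neither difference was tested. Of the intergenic peaks, 31.6% (26.2 to 37.6%) lay in a gap between divergent genes, whose starts both face it, against 22.2% of the ranked ones (odds ratio 1.62, exact p adjusted over the 3 orientations = 0.00182). Convergent gaps held 20.6% and 25.4% (exact test, adjusted p = 0.123), and tandem gaps held 47.8% and 50.5% (adjusted p = 0.412). By the same exact test, the divergent call was lost with 1 peak per gap (odds ratio 1.43, adjusted p = 0.0904), with the conservative list (1.29, adjusted p = 0.191), in each replicate's own list (1.32 in replicate 2's and 1.13 in replicate 1's), in the stronger peaks, in those supported by both lists and with transposon and pseudogene models kept as genes. A long noncoding or antisense RNA gene bordered the gap at 121 intergenic peaks (47.8%) and at 43.7% of the ranked ones.

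Some intergenic peaks shared a gap. Ranked intergenic peaks also shared gaps, as 37307 of them lay in 3637 gaps, and the 2 sets were not compared in this. The 253 peaks lay in 196 gaps, of which 160 held 1, 36 held at least 2 and 13 held at least 3, and 93 of the peaks (36.8%) shared their gap with another. The gap between CR44363 and CG7560 on 3L held 6 peaks over 11136 bp, with pooled signals between 54.99 and 302, and the gap between NijA and CG43245 on 3L held 6 over 34571 bp, with signals between 65.3 and 169. A gap on 3L between a tRNA-Ile gene and CG13898 held 5, with signals between 58.1 and 168. Of the 13 gaps with at least 3 intergenic peaks, 7 were on 3L, which held 32.8% of intergenic and 24.4% of ranked peaks. The 13 gaps included those beside vvl and dls on 3L, and on 2L those with noc or chinmo as a coding neighbour. These gaps were chosen by their counts.

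Another main summit lay within 10 kb of 134 intergenic peaks (53.0%, 46.8 to 59.0%) and of 52.7% of the other main peaks (odds ratio 1.01, exact p = 1, adjusted p = 1). Compared with promoter peaks alone, counting neighbours among those 2 sets only, the shares were 48.2% and 35.1% (odds ratio 1.72, exact p = 0.000191). The nearest other summit of those 134 was another intergenic peak at 90, a promoter peak at 29 and a genic peak at 15. The main list held 253 intergenic, 952 promoter and 857 genic peaks. Summits in the same gap lie near each other by position, and this split was not tested against another set.

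The arms held unequal shares of the intergenic peaks. There were 83 on 3L, 62 on 2L, 54 on 3R, 33 on 2R, 21 on X and 0 on 4, and a count of 0 among 253 allows a share of up to 1.496% as the upper Wilson bound. The X held 8.30% (5.49 to 12.4%) of the intergenic peaks and 19.6% of the other main peaks (odds ratio 0.371, exact p = 3.38e-06, adjusted p = 9.28e-06). This lower X share kept its direction and its call in every alternative run for it, including against genic peaks, with 24.0% on X (odds ratio 0.286, exact p = 8.58e-09), and against promoter peaks, with 15.7% (odds ratio 0.488, exact p = 0.00223). Against ranked intergenic peaks, of which 13.4% were on X, the difference was smaller (odds ratio 0.587, exact p = 0.0157, adjusted p = 0.0321), and the call was lost in the list of either replicate, in the stronger peaks, in the peaks in both lists, with 1 peak per gap and with both sets limited to summits at or below the median GC of the ranked ones (low-GC summits). On 3L the share was 32.8% (27.3 to 38.8%), while 24.4% of the ranked intergenic peaks were there (odds ratio 1.52, exact p adjusted over the 6 arms = 0.0152), and this call was lost in the stronger peaks (adjusted p = 0.150), with 1 peak per gap (adjusted p = 0.155) and in low-GC summits (adjusted p = 0.0921). The other 4 arms gave adjusted p-values between 0.0666 and 1.

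**Figure D4:**
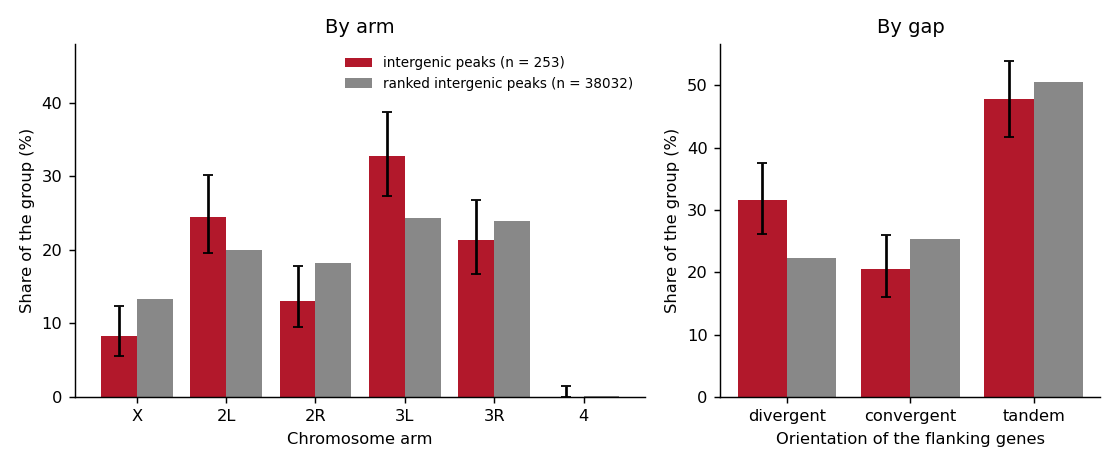
Shares (%) of the 253 intergenic peaks, with 95% Wilson intervals, and of the 38032 ranked intergenic peaks by chromosome arm (left panel) and by orientation of the flanking genes (right panel). The intergenic peaks have 32.8% on 3L against 24.4%, 8.30% on X against 13.4%, and 31.6% in divergent gaps against 22.2%.

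Intergenic peaks had lower GC content than the candidates around them. The 101 bp at the summit had 36.3 ± 9.91% GC in the intergenic peaks and 44.4 ± 8.80% in the ranked intergenic peaks (SD over 253 and 38032 summits). Of the intergenic peaks, 78.3% (72.8 to 82.9%) were at or below the median of the ranked ones, 44.6%, against 51.01% among the ranked (odds ratio 3.46, exact p = 7.08e-19, adjusted p = 7.79e-18). The odds ratio was larger in the lists of single replicates, 6.60 in replicate 1's and 6.59 in replicate 2's. The same held inside gaps: in the 173 gaps with both kinds, the median GC of the intergenic peaks was lower in 136 and higher in 36, with a median difference of -8.91 percentage points (intergenic minus ranked, exact sign test p = 7.08e-15). It was also local. At a flank 400 bp to the right of the same summits the mean was 42.0 ± 10.1%, and the summit was lower than its own flank at 165 peaks while 81 had the reverse (exact sign test p = 9.17e-08, adjusted p = 3.36e-07).

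Against the other main peaks no difference in GC passed the test. The other main summits had 34.8 ± 10.8% GC and a median of 32.7%. At or below that median were 46.2% of the intergenic and 51.1% of the other main peaks (odds ratio 0.822, exact p = 0.159, adjusted p = 0.194). With 100 bp to each side the intergenic summits were called the more GC-rich of the 2. Of them, 41.9% lay at or below the median, against 50.7% of the other main peaks (odds ratio 0.700, exact p = 0.00883). The same call was made with 25 bp to each side (exact p = 0.0431) and against promoter peaks alone (exact p = 0.0336).

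Within the set, the stronger peaks had lower GC. When they were split in 3 by signal, the strongest part (85 peaks, median signal 133) had 32.9 ± 8.63% GC, the middle part (84 peaks, median 82.3) had 35.2 ± 9.79% and the weakest part (84 peaks, median 61.1) had 40.7 ± 9.69%. The share of candidates that reached the main list was 3.30% (2.67 to 4.07%) where the summit had at most 30% GC, with 83 intergenic peaks, 1.44% at 30 to 35% GC and 0.161% (0.0873 to 0.295%) at 50 to 55% GC. In all, 22 intergenic peaks (8.70%) had more than 50% GC, none of them among the 25 strongest, whose GC ran between 20.8 and 46.5%, and 2 of the 22 were supported by both replicate lists. The base composition of the DNA also enters how many fragments are amplified, sequenced and mapped, and the part of that in these values was not tested.

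**Figure D5:**
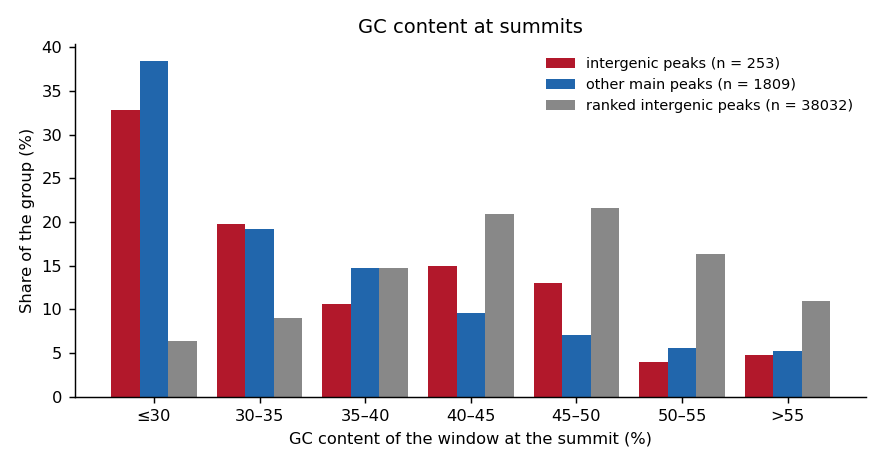
Share of each group (y axis, %) by GC content of the 101 bp at the summit (x axis, %), for intergenic peaks, other main peaks and ranked intergenic peaks. At most 30% GC was found in 32.8% of intergenic peaks, 38.5% of other main peaks and 6.40% of ranked intergenic peaks.

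A set of 26 motifs was searched on both strands in the 101 bp at each summit. Against ranked intergenic peaks, 5 motifs (19.2%) passed an adjusted p of 0.05, all more frequent in intergenic peaks. The commonest were AT-rich: AAATAT was in 71 intergenic peaks (28.1%) and 14.5% of ranked ones (odds ratio 2.30, Fisher's exact test adjusted over the 26 motifs, p = 7.34e-07), TATAAA in 45 (17.8%) and 8.76% (odds ratio 2.25, adjusted p = 7.53e-05), and the Mef2 motif, which can overlap both, in 14 (5.53%) and 2.06% (odds ratio 2.79, adjusted p = 0.00802). In low-GC summits alone, the Mef2 call was lost (odds ratio 2.12, exact test, adjusted p = 0.0573). The TATAAA call was lost in replicate 1's own list (odds ratio 1.74) and with 25 bp to each side (1.60), and the Mef2 call in both replicates' lists, in the peaks supported by both and with 25 bp to each side. The letters AAATAT and TATAAA can also overlap each other.

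The CTCF motif was rare but more frequent in intergenic peaks. It was in 5 of them (1.98%) and in 0.321% of the ranked ones (odds ratio 6.26, exact p adjusted = 0.0104). The 5 were the peak beside jp (322), the one between CG14762 and mir-4981 (194), the one between Sid and snu (102), the one between soti and cv-c (78.7) and the one between CG43131 and RabGGTa (61.6); the first 2 were supported by both replicate lists, the third by 1 and the other 2 by none. The call rests on these 5 peaks and was lost with the start site window at 1000 bp (exact test, adjusted p = 0.126), in replicate 2's own list, in the peaks in both lists, with a shorter window and with 1 peak per gap. Other main peaks had it at 0.995%. The M1BP motif was in 2 intergenic peaks, that between slp1 and slp2 (215) and one between CR45251 and CG6163 (65.6), or 0.791%, and in 0.0421% of the ranked ones (odds ratio 18.9, exact test, adjusted p = 0.0323), a call that was lost in each replicate's list, in the stronger peaks, in those supported by both lists and in low-GC summits. The Su(Hw) motif GCATACTT was in 3 intergenic peaks (1.19%) and 0.465% of ranked ones (exact test, adjusted p = 0.218), and the strongest of the 3 was between CG30089 and Zasp52 (114.7).

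No motif passed the test between intergenic peaks and the other main peaks: 0 of 26 (0%) passed the adjusted threshold, none at an unadjusted p under 0.05, and the lowest adjusted p was 0.662. Against their own flank 0 of 26 (0%) passed as well, with 3 at an unadjusted p under 0.05 by the exact McNemar test and the lowest adjusted p at 0.120. Those 3 were AAATAT, in 71 summits and 43 flanks, the CA repeat CACACACA, in 1 and 10, and the GAGA factor motif GAGAGAG, in 0 and 6.

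All 2080 6-mers, each counted together with its reverse complement, were compared in the same windows with ranked intergenic peaks, and 176 (8.46%) passed an adjusted p of 0.05, 128 more frequent in intergenic peaks and 48 less frequent. ATATTA led, in 48 intergenic peaks (19.0%) and 6.58% of ranked ones (odds ratio 3.32, Fisher's exact test adjusted over all 6-mers, p = 9.24e-08). AAACTA followed, in 46 (18.2%) and 6.57% (odds ratio 3.16, exact test, adjusted p = 4.66e-07), then AATATA, in 50 (19.8%) and 8.03% (adjusted p = 2.64e-06). TAAGAA was in 36 (14.2%) and 4.90% (odds ratio 3.22, exact test, adjusted p = 5.82e-06). Of the 36 6-mers made of A and T alone, 28 were called more frequent, and 100 of those called more frequent held a G or a C. With both sets limited to summits at or below the median GC of the ranked peaks, 14 were called more frequent and 3 less frequent. In replicate 1's own list the counts were 68 and 9, and in replicate 2's 93 and 13.

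The reference genome marks repeats in lower case, and 42 intergenic summits (16.6%, 12.5 to 21.7%) fell on such bases, against 17.5% of the ranked ones (odds ratio 0.936, exact p = 0.741). Transposon and pseudogene models, which were not counted as genes, covered 5 intergenic summits (1.98%) and 4.44% of the ranked ones (odds ratio 0.434, exact p = 0.0635, adjusted p = 0.0873). The share was lower by a larger factor, with an unadjusted exact p under 0.05, in some other sets. It was 0.719% of 139 intergenic summits in replicate 1's own list (odds ratio 0.170, exact p = 0.0480). In replicate 2's list it was 0.676% of 148 (0.151, exact p = 0.0230) and in the conservative list 1.19% of 252 (0.259, exact p = 0.00804). In the stronger main peaks no intergenic summit lay in such a model (exact p = 0.0162). No call was made with a start site window of 1000 bp (1.95%, odds ratio 0.412, exact p = 0.0905). The same was true of peaks in both replicate lists (1.11%, odds ratio 0.242, exact p = 0.192). These shares rest on very few summits. No intergenic summit had a second exact copy of its central 51 bp on the arms.

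The protein-coding genes to the left and right of each intergenic peak were counted against 10 gene lists, with the share among ranked intergenic peaks beside each count and no test. Patterning transcription factor genes bordered 13 intergenic peaks (5.14%) and 5.63% of the ranked ones. They were Doc1, Doc2, abd-A, drm, ems, hth, mid, slp1, slp2 and vvl. Beside mid, a T-box gene, the peak had a signal of 133 (72.8 in replicate 1 and 61.6 in replicate 2) at 15273 bp from its start. Beside vvl the strongest had 126 (64.6 and 67.9).

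Genes of signalling pathways bordered 6 intergenic peaks (2.37%) and 1.37% of the ranked ones. The strongest was between the cytokine genes upd3 and upd1 on X, with a pooled signal of 120 (51.9 in replicate 1 and 72.5 in replicate 2), followed by one 5231 bp before ptc, the Hedgehog receptor gene, with 116 (60.9 and 53.3). The Notch ligand gene Ser and the FGF genes pyr and ths were also among the neighbours, at 91.1 and 76.3. Cuticle and epidermis genes bordered 4 (1.58%, against 1.09%), with Cpr76Ba at 191 and ple, the tyrosine hydroxylase gene, at 131 (53.5 and 75.5) the strongest. Neuronal genes bordered 4 (1.58%, against 1.76%), beside SoxN at 93.7 and 57.8, futsch at 81.0 and robo2 at 54.6.

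Chemoreceptor and odorant-binding protein genes bordered 7 intergenic peaks (2.77%) and 4.56% of the ranked ones, none above a signal of 80.0. The one beside Gr89a had that value, with 58.6 in replicate 1 and 23.5 in replicate 2, at ranks 643 and 8625 of those ranked lists. Muscle genes bordered 1 (0.395%, against 0.450%), beside Zasp52, at 114.7. Cytoplasmic ribosomal protein genes bordered 1 (0.395%, against 1.26%), RpL22-like at 69.6. Mitochondrial ribosomal protein genes, genes of insulator and promoter-binding factors and immune genes bordered 0, where 0.510%, 0.410% and 0.252% of the ranked intergenic peaks had such a neighbour. Counts this small do not show a difference between the sets.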

How the data were processed

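Peak lists with dm6 coordinates were deposited for 2 biological replicates. Per the deposited file descriptions, each replicate alone had a thresholded and a ranked list, and both together had a main thresholded list, a conservative one and the ranked list of each. Aligner, peak caller, versions: not given in the sources used here. Depth per library is unknown. The deposited signal value of each peak was used to describe, rank and filter peaks within a list. The deposited score was used only for its lowest value in the main list, 830. Of the main list, 2062 of 2088 peaks were on the arms.

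Summits were placed against Ensembl release 115, with transposon and pseudogene models left out. A replicate's own signal at a peak was that of its overlapping ranked peak with the nearest summit. GC and motifs were read in 50 bp to each side of the summit, and the flank window was centred 400 bp to the right. Named peaks were the 25 strongest, the 5 farthest from a start site, 3 to each side of the 500 bp limit, up to 4 beside genes of each list and up to 5 with each of the CTCF and Su(Hw) motifs. The further peaks before chinmo, the 3 weakest peaks, the peaks with the M1BP motif and the gaps with several peaks fall outside that rule and were named after their values were seen. The members and gene lists were chosen with earlier results of these data known. The adjusted p threshold was 0.05 (Benjamini-Hochberg). Python 3.11.15 with scipy 1.17.1 and pandas 2.3.3 was used, and the tests were checked on simulated data. Alternatives were stricter overlap, a start site window of 1000 bp, models kept as genes, the other lists, stronger or doubly supported peaks, other windows and flanks, and others chosen after seeing the data: 1 peak per gap, gaps of at most 50 kb, low-GC summits, values within gaps, and promoter or genic peaks as the comparison.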

Additional observations from a re-analysis of the deposited data

Results flagged for a closer look

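The main list held 26 peaks that were not on the chromosome arms, all on contigs assigned to X. They entered no comparison above, and they are pointed out as a signal in data that the comparisons did not use.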

How the results depend on the processing

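The lower X share against other main peaks, the lower GC against ranked intergenic peaks and against the flank, and the AAATAT motif kept direction and call in every alternative run for them. In the list of a single replicate, the range over the lists of replicates 1 and 2 was an odds ratio of 0.782 to 0.806 for reaching the median signal (call lost) and 0.544 to 0.617 for X against ranked intergenic peaks (call lost). It was 0.151 to 0.170 for transposon and pseudogene models (call gained at an unadjusted p) and 0.964 to 1.17 for masked bases (direction turned, no call). The counts called were 1 to 1 arm, 0 to 0 orientations, 2 to 4 motifs, and 68 to 93 6-mers more frequent and 9 to 13 less frequent. Peaks at or above the median signal gave odds ratios of 0.809 for support in both lists, 0.732 for reaching their own median, 0.583 for X against ranked peaks, 0 for models and 1.07 for convergent gaps, with 0 arms, 0 orientations and 70 and 6 6-mers called. Peaks in both replicate lists gave 0.703 for the median signal, 0.463 for X against ranked peaks, 0.969 for another summit within 10 kb, 1.02 for masked bases and 1.07 for convergent gaps, with 1 arm, 0 orientations, 2 motifs and 60 and 3 6-mers. The conservative list gave 0.259 for models and 1.07 for tandem gaps, with 0 orientations and 1 motif against the flank. With models kept as genes, the median signal had 0.765 and 0 orientations were called. A start site window of 1000 bp gave 1.02 for masked bases and 25 less frequent 6-mers. Windows of 25 bp to each side gave 0.757 for GC against other main peaks, 2 motifs and 43 and 4 6-mers; windows of 100 bp gave 0.700, 2 motifs against the flank, 1 motif against other main peaks and 96 less frequent 6-mers. A flank to the left gave 2 motifs, and summits within 20 kb gave 0.853.

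Among alternatives chosen after seeing the data, 1 peak per gap gave 0.705 for X against ranked peaks, 1.48 for distance, 0 arms, 0 orientations and 24 less frequent 6-mers. Low-GC summits gave 0.617 for X, 0 arms, 3 motifs and 14 and 3 6-mers. Within gaps the ratio for distance was 0.880. Against genic peaks, support had 0.974 and the median signal 1.03; against promoter peaks, another summit nearby had 1.72 and GC 0.736. With fewer peaks in the replicate, stronger and supported sets, fewer calls could be made; the cause of the other changes was not tested. The samples were 1 group. No paired analysis was possible because there was no second group to pair them with. Depth is unknown and no untagged control library was analysed here, so peak height is given without an error.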
